A study of Mus musculus with 14 samples.

Results

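Integrins and claudins are the families that anchor cells to matrix and seal cells to each other, and every integrin and claudin symbol of the deposited gene table was followed here across all 14 RNA libraries. The members are the rows whose symbol is Itga or Itgb with a subunit number or letter, or Cldn with a number. The rule finds 51 of the 23174 rows: 26 integrins, counting alpha and beta subunits, and 25 claudins. It uses names alone and no measured value.

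The study, by its title, concerns the zinc finger transcription factor Zfp281 in the passage of mouse embryonic stem cells (ESCs) to extraembryonic endoderm (XEN) cells, the stem cells of the yolk sac lineage. Messenger RNA was sequenced in 4 lines of strain 129S1/SVImJ: 3WT, which is wild type, 3.34Null and 2.6Null, which are Zfp281 knockouts (KO), and 3.34Null-Rescue, which is the 3.34 knockout with Zfp281 put back. Each line gave 1 library undifferentiated (ESC), 1 at passage 1 (cXENp1, after 48 hours of 0.01 µM all-trans retinoic acid and 10 ng/mL activin A in XEN medium) and 1 at passage 3 (cXENp3, on gelatin, after a passage on iMEF feeder cells). The established lines XENB1 (129S1 by its label) and XEN5 gave 1 library each, and the labels name no Zfp281 change in them. "Zfp281-present" here means 3WT and 3.34Null-Rescue together. KO rests on 2 lines and Zfp281-present on 2 lines, of which 3.34Null-Rescue derives from 3.34Null. Each line stands for 1 replicate, so the tests measure the spread between lines, pooled over the groups of a fit. The fit for cXENp1 against ESC differs, as given there. The title calls a line 2.6Null while its cell line field reads 2.26-/-, and the title's name is kept.

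Zfp281 itself was at 25.1 to 38.6 FPKM in the 6 libraries of 3WT and 3.34Null-Rescue, at 1.29 to 3.96 in 3.34Null, at 0 to 0.559 in 2.6Null, and at 10.6 and 12.5 in the XEN lines. FPKM is a level scaled to transcript length and to the size of the library. The files hold no read counts, so the depth is unknown and the precision of low levels cannot be stated. XEN markers (8 genes, Gata4 and Sox17 among them) summed to 844.2 to 1096.5 FPKM in KO cXENp3 and 961.9 to 1296.7 in the XEN lines, against 6.17 to 12.6 in Zfp281-present cXENp3, where 5 ESC markers summed to 1630.6 to 2653.8. Those ESC markers summed to 65.9 to 327.5 FPKM in KO cXENp3 and to 0.159 to 13.1 in the XEN lines. At passage 3, then, 3WT and 3.34Null-Rescue carried ESC markers and little of the XEN markers. 2.6Null stood apart before that: its XEN marker sum was 59.3 in ESCs, where the other 3 lines had 7.22 or less, and 509.3 at cXENp1, where the others had 39 to 46.7. These are bulk samples, in which fewer cells of a type and less RNA per cell cannot be told apart.

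Integrins are pairs of 1 alpha and 1 beta subunit that span the membrane, bind laminin, fibronectin, collagen or other cells outside, and hold the actin skeleton through talin, kindlin and vinculin inside. Claudins are small membrane proteins that polymerise into tight junction strands with occludin and the ZO proteins, and which claudins a cell makes sets how tight and how ion-selective its epithelium is. In the early embryo, primitive endoderm lays down and sits on a laminin-rich basement membrane, and its parietal derivatives migrate along matrix while its visceral derivatives form a sealed epithelium.

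The upstream windows of 4 members are shown because the results turn on them: Itgb1, the subunit with the most transcript, Itgb5, the integrin with the largest KO difference at cXENp3, Cldn4, the leading claudin of ESCs, and Cldn6, the leading claudin of XEN lines. Each is the 250 bases before the annotated start from RefSeq, build GRCm38.p6, on the gene's own strand. They lie at chr8:128685404-128685653 (plus strand, Itgb1), chr16:33829415-33829664 (plus, Itgb5), chr5:134946935-134947184 (minus, Cldn4) and chr17:23679115-23679364 (plus, Cldn6). Capitals mark the letters GGAATG, which TEAD factors prefer, in Itgb1, and CACCTG, the E-box of Snai and Zeb repressors, or its reverse complement CAGGTG in the others.
Itgb1: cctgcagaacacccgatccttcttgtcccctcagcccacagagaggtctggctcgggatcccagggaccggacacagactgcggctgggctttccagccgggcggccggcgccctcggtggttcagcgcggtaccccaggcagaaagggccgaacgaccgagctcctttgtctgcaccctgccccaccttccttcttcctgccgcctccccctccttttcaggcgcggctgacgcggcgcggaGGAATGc
Itgb5: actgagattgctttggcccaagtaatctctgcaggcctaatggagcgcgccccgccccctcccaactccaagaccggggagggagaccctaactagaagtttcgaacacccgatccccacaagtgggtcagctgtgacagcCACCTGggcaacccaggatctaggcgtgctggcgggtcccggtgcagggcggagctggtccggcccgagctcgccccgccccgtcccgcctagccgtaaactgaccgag
Cldn4: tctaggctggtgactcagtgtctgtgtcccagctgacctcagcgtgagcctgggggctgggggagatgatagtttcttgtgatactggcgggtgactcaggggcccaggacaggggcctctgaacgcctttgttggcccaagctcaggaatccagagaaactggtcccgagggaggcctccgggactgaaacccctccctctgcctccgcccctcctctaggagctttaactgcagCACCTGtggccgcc
Cldn6: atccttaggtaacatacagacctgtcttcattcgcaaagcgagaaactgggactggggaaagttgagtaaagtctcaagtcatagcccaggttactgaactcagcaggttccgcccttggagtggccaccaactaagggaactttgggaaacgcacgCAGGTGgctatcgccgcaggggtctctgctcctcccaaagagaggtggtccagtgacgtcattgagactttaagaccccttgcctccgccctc

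Both strands of the RefSeq windows, which held 37 of the 51 members, were searched for these letters and for a pair of GATA factor words. Some members have several windows, 47 in all. The E-box letters CACCTG were in 10 of the 47 (21.3%), against 17.2% of all 32851 windows, and in these 4 windows its match lay 109 bases before the start in Itgb5, 14 in Cldn4 and 93 in Cldn6. The TEAD word was in 6 of the 47 (12.8%), against 12.6% of all windows, 7 bases before the start in Itgb1. Among the GATA words, AGATAA was in 3 of the 47 member windows (6.38%, against 9.99% of all), while the variant TGATAA was in 2 (4.26%, against 7.94%). No 2 matches overlap in the windows printed. These are letter matches, and no binding was measured.

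In the deposited mm9 coordinates, some members are close neighbours: Cldn6 (chromosome 17, 23816332 to 23819414) ends 136 bases before Cldn9 (23819551 to 23820993), and Cldn4 (chromosome 5, 135420993 to 135422804) lies 39.3 kb from Cldn3 (135462084 to 135477220). How fragments shared by close paralogs or overlapping transcripts were assigned is not given in the sources used here. The row named Cldn25 lies on chromosome 16, where RefSeq gives that name as an old symbol of Cldnd1, a claudin domain protein, and Cldn26 is likewise an old symbol of Tmem114. Both rows are kept as members and left out of the claudin sums.

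Of the 26 integrins, 17 reached 1 FPKM in at least 2 libraries, 7 reached 10 FPKM, and 8 never reached 1 (Itga10, Itga2, Itga2b, Itga4, Itgad, Itgae, Itgax and Itgb8). Itga1 reached it in 1 library only, at 1.38 FPKM in 3.34Null-Rescue at cXENp3. Of the 25 claudins, 11 reached 1 FPKM in at least 2 libraries, 7 reached 10, and 13 never reached 1 (Cldn2, Cldn8, Cldn10, Cldn13 to Cldn19, Cldn22, Cldn24 and Cldn26), of which Cldn17 and Cldn24 were listed at 0 throughout. Cldn20 reached 1 FPKM in the 3WT ESC library alone. The platelet subunit Itga2b peaked at 0.724 FPKM, and the T cell and gut homing subunits Itga4 and Itgae at 0.431 and 0.637. The expressed repertoire was therefore small, and Itgb1 took 65.8% to 91.7% of the summed beta-subunit FPKM in every library.

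**Figure D1:**
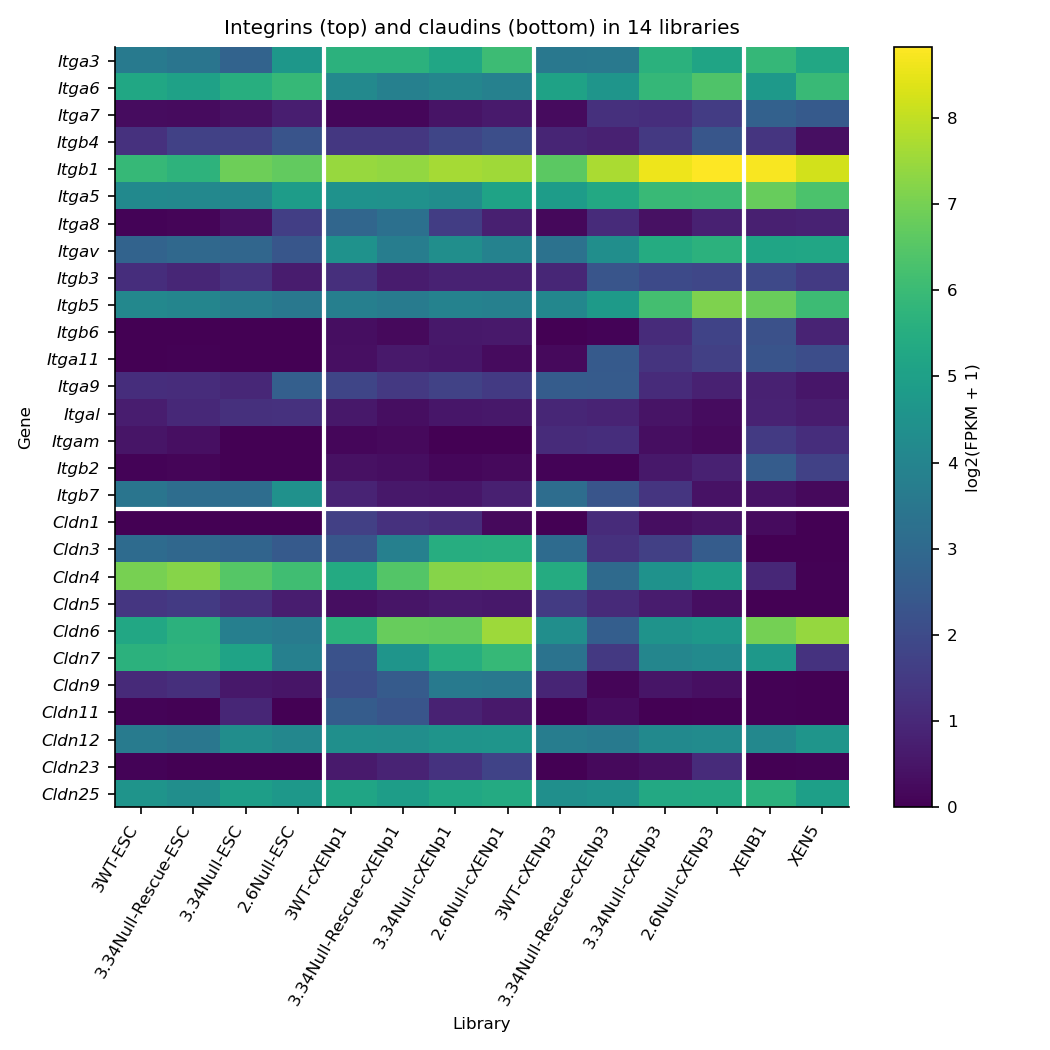
Level of the 28 members that reached 1 FPKM in at least 2 libraries, as log2(FPKM + 1), with integrins above the white line and claudins below, in 14 libraries ordered by stage (columns ESC, cXENp1, cXENp3 and XEN lines, parted by white lines). Itgb1 is the brightest row, from 51 to 450.9 FPKM, Cldn4 is bright in the ESC libraries and dark in the XEN lines, and Cldn6 is bright at cXENp1 and in the XEN lines.

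Levels were compared on the log2(FPKM + 1) scale with limma, and a gene was called at an adjusted p under 0.05 over all genes tested. A log2 change on that scale understates the change of low genes. The first question, set by the XEN lines as the endpoint, was how their adhesion genes differ from those of ESCs. XEN lines had more of the matrix receptors Itgb1, Itgb5, Itgav, Itga3, Itga5, Itga7 and Itga11 and of Cldn6, and less Cldn4, Cldn3, Cldn5 and Cldn9. Of 15 integrins tested, 9 were higher and 1 (Itgb7) lower, with a median log2 change of 1.96, and of 8 claudins 1 was higher and 4 lower, with a median of -1.0. Over all genes 41.9% were called in this comparison and the median change was -0.02. A member listed low in one group entered this fit only through the group where it is high: Itga7, Itga11, Itgam and Itgb2 reached 1 FPKM in the XEN lines alone, and Itgb7, Cldn3, Cldn4, Cldn5 and Cldn9 in ESCs alone. These 9 calls and the medians therefore support no statement about the families. Of the 12 members that reached 1 FPKM in both groups, 6 were called, all higher (Itgb1, Itgb5, Itgav, Itga3, Itga5 and Cldn6). The XEN group is 2 libraries, and fewer members were called without XEN5 or without XENB1, as were fewer of all genes.

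The second question was how the 4 lines differed between ESC and cXENp1, with line as a block. The series holds no untreated library at passage 1, so the 48 hours of retinoic acid and activin A cannot be told apart from the passage. The fit for this comparison also held the cXENp3 libraries and had no Zfp281 term. Its spread therefore includes the parting of the lines at cXENp3. At cXENp1, Itgb1, Itgav and Itga3 were higher than in ESCs, Itga6 and Itgb7 were lower, and Cldn1, Cldn6, Cldn9, Cldn11, Cldn12 and Cldn23 were higher. Thus 11 of 27 members were called, against 28.5% of all genes. Cldn1, Cldn11 and Cldn23 stood at 0.939 FPKM or less in ESCs and passed the filter on low levels through cXENp1 (Cldn11 through that stage alone, Cldn1 and Cldn23 with 1 cXENp3 library each), so their calls carry little weight in that count. The ESC libraries of 3WT, 3.34Null and 3.34Null-Rescue carry another prefix (JH) in the library description than the remaining 11 (XH), which overlaps with the ESC stage. With the prefix as a term 2 of the 11 calls remained, Itgb7 and Cldn23. Of all 13191 genes tested, 280 were then higher and 159 lower, instead of 1934 and 1826. In 2.6Null, whose 3 libraries share 1 prefix, all 11 moved in the called direction, with 1 library per stage. That line was itself in the fit that made the calls, so its direction is no separate support for them.

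The third question was whether lines without Zfp281 differ at each stage. In ESCs no member was called in KO against Zfp281-present, where 1.97% of all genes were called. By limma's unadjusted p under 0.05 there were 4 of 27 (Cldn6, Cldn12, Itgam and Itgb1), beside 2762 of all 13191 genes, a larger share. Limma without its mean-variance trend called 0 members too. At cXENp1 1 of 27 members was called, Cldn11, where 0.485% of all genes were called, and Cldn11 reached 1 FPKM only in the 2 Zfp281-present libraries of that stage, so it was tested because it is high there. At cXENp3 14 of 27 were called, where 41.9% of all genes were called: 11 of 16 integrins, with 8 higher (Itgb1, Itgb4, Itgb5, Itgb6, Itga3, Itga5, Itga6 and Itgav) and 3 lower (Itga9, Itgam and Itgb7), and 3 of 11 rows named claudin (Cldn12 and Cldn25 higher, Cldn5 lower). The median log2 difference was 0.76 over the integrins and 0.47 over the claudins, beside 0.01 over all genes. Of these, Itgb6 reached 1 FPKM in the KO cXENp3 libraries alone and Itgam in the Zfp281-present ones alone, so both were tested through the group where they are high. Of the 24 members that reached 1 FPKM in more than 1 of the 6 groups, 12 were called, 9 higher and 3 lower. Fewer members were called without 3WT, without 3.34Null-Rescue and without 2.6Null, and so were fewer of all genes. Such fits leave 1 library in a group. With a line left out the Itgb5 difference ran from 1.75 to 2.68.

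**Figure D2:**
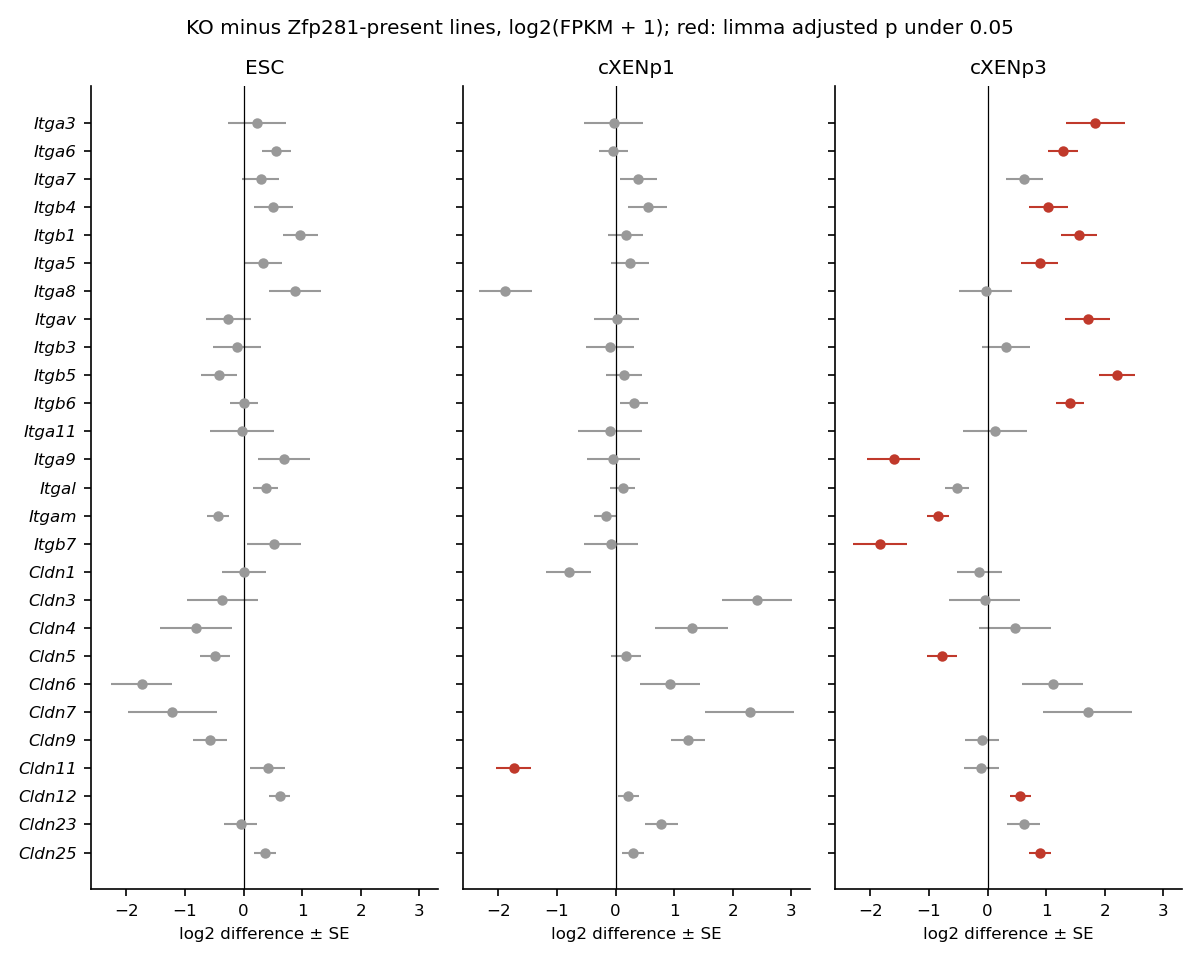
Difference of KO minus Zfp281-present lines in log2(FPKM + 1) for the 27 members tested (points, with bars of 1 standard error from the limma fit), at ESC, cXENp1 and cXENp3, with red points at an adjusted p under 0.05. No point is red in ESCs, 1 is red at cXENp1 (Cldn11), and 14 are red at cXENp3, led by Itgb5 at 2.21.

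The libraries' own values follow, by the members' roles. Within a stage the 4 values stand in the order 3WT, 3.34Null-Rescue, 3.34Null, 2.6Null, and those of the XEN lines in the order XENB1, XEN5. Itgb1, the beta partner of most matrix-binding alpha subunits (chromosome 8, 131209554 to 131257479), was at 59.5, 51, 115.5 and 102.9 FPKM in ESCs, at 174.2, 167.9, 196.3 and 188.5 at cXENp1, at 95.9, 206.2, 382.5 and 450.9 at cXENp3, and at 420.6 and 294.1 in the XEN lines. It rose in all 4 lines at cXENp1 (log2 change 1.22, SE 0.31, adjusted p = 0.02) and rose again in both KO lines by cXENp3 (log2 change 1.11, SE 0.30, adjusted p = 0.0273), to levels around those of the XEN lines. Both KO libraries at cXENp3 lay above both Zfp281-present libraries (log2 change 1.56, SE 0.30, adjusted p = 0.00329), a call lost without 3WT, and XEN lines were higher than ESCs (log2 change 2.17, SE 0.36, adjusted p = 0.00258). KO ESCs read above Zfp281-present ESCs as well, without overlap, but that difference did not pass (log2 change 0.97, SE 0.30, adjusted p = 0.11).

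Among the laminin receptors, Itga6, the alpha subunit that pairs with Itgb1 or Itgb4, was at 37.2, 32.4, 44.7 and 59.6 FPKM in ESCs, at 16.6, 13.5, 15.4 and 13.6 at cXENp1, at 32.7, 23.1, 57.4 and 82.1 at cXENp3, and at 26.5 and 62 in the XEN lines. It fell in every line at cXENp1 (log2 change -1.46, SE 0.27, adjusted p = 0.00531) and came back in KO lines by cXENp3 (log2 change 2.17, SE 0.25, adjusted p = 0.000478), above both Zfp281-present libraries (log2 change 1.29, SE 0.25, adjusted p = 0.00354). XENB1 was below and XEN5 above all 4 ESC libraries. Itga3, the other laminin-binding partner of Itgb1 in epithelia, was at 11.1, 9.73, 5.99 and 24.5 FPKM in ESCs, at 49.7, 49.8, 36.4 and 64.7 at cXENp1, at 10.6, 10.9, 48.7 and 34.8 at cXENp3, and at 58 and 38 in the XEN lines. It took the opposite course at cXENp1 (log2 change 2.02, SE 0.45, adjusted p = 0.0111), and it then fell in Zfp281-present lines (log2 change -2.11, SE 0.50, adjusted p = 0.0248). From cXENp1 to cXENp3 it went from 36.4 to 48.7 in 3.34Null and from 64.7 to 34.8 in 2.6Null, and without 3.34Null it was called lower in KO over that step. KO libraries were above Zfp281-present ones at cXENp3 (log2 change 1.84, SE 0.50, adjusted p = 0.0149), a call lost without 3WT and without 3.34Null-Rescue. XEN lines were higher than ESCs (log2 change 1.96, SE 0.48, adjusted p = 0.013). The leading alpha subunit by summed FPKM was thus Itga6 in all 4 ESC libraries (46.4% to 57.5%), Itga3 in all 4 cXENp1 libraries (37.4% to 49.1%), and Itga5 or Itga6 in each cXENp3 and XEN library.

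Itga7, a laminin receptor best known from muscle, was at 0.217, 0.206, 0.305 and 0.678 FPKM in ESCs, at 0.103, 0.119, 0.371 and 0.543 at cXENp1, at 0.193, 1.31, 1.24 and 1.94 at cXENp3, and at 5.7 and 4.71 in the XEN lines. It was high in the XEN lines alone, above ESCs (log2 change 2.21, SE 0.25, adjusted p = 0.00038), a comparison it entered only through the XEN lines. XEN lines were also above KO cXENp3 (taken as KO cXENp3 minus XEN, log2 change -1.27, SE 0.30, adjusted p = 0.0407), although that last call was lost whichever of the 6 lines was left out. Itgb4, the hemidesmosome subunit that pairs with Itga6, was at 1.4, 2.29, 2.24 and 3.94 FPKM in ESCs, at 1.69, 1.71, 2.58 and 3.35 at cXENp1, at 0.897, 0.764, 1.76 and 4.11 at cXENp3, and at 1.57 and 0.292 in the XEN lines. It was low everywhere, and KO libraries at cXENp3 lay above the Zfp281-present ones (log2 change 1.04, SE 0.33, adjusted p = 0.0314), a call that held in 1 of the 4 fits without a line.

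Of the receptors for the RGD motif of fibronectin and vitronectin, Itgb5, which pairs with Itgav (chromosome 16, 33829751 to 33949424), was at 16.3, 15.3, 12.7 and 10.5 FPKM in ESCs, at 12.9, 11.7, 14.1 and 13.3 at cXENp1, at 16, 26.8, 72.3 and 137.9 at cXENp3, and at 109.9 and 65.1 in the XEN lines. It was not called from ESC to cXENp1 and then rose in KO lines (log2 change 2.78, SE 0.31, adjusted p = 0.00041), with both above both Zfp281-present libraries at cXENp3 (log2 change 2.21, SE 0.31, adjusted p = 0.000779). XEN lines exceeded ESCs (log2 change 2.56, SE 0.29, adjusted p = 0.000389). The comparisons of a gene share libraries and are not independent of each other. Itgav, the alpha subunit of several fibronectin and vitronectin receptors, was at 5.97, 6.89, 6.56 and 4.11 FPKM in ESCs, at 21.5, 12.4, 19.5 and 14 at cXENp1, at 8.95, 19.4, 41.6 and 50.1 at cXENp3, and at 35.3 and 36.2 in the XEN lines. It was higher at cXENp1 (log2 change 1.36, SE 0.44, adjusted p = 0.0445), a call that held in 1 of the 4 fits without a line. It rose further in KO lines (log2 change 1.41, SE 0.38, adjusted p = 0.0258) and was higher there than in Zfp281-present lines at cXENp3 (log2 change 1.71, SE 0.38, adjusted p = 0.00611), where 3.34Null-Rescue was also above its own cXENp1 value. XEN lines were higher than ESCs (log2 change 2.44, SE 0.26, adjusted p = 0.00032).

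Itga5, which with Itgb1 forms the main fibronectin receptor, was at 17.1, 16.3, 16.1 and 28.4 FPKM in ESCs, at 21.3, 21.1, 18.8 and 34.1 at cXENp1, at 28.4, 39.3, 61.9 and 64.1 at cXENp3, and at 107.8 and 78.5 in the XEN lines. Every line was higher at cXENp3 than in ESCs, KO lines rose past cXENp1 (log2 change 1.28, SE 0.32, adjusted p = 0.0186) and were above Zfp281-present lines (log2 change 0.89, SE 0.32, adjusted p = 0.0447), a call lost with quantile normalization or without the trend. The XEN lines had the highest levels of the series (log2 change 2.22, SE 0.29, adjusted p = 0.000785 against ESCs). Itgb6, the epithelial partner of Itgav that activates latent TGF-beta, was at 0, 0.01, 0.0118 and 0.0123 FPKM in ESCs, at 0.24, 0.169, 0.48 and 0.523 at cXENp1, at 0, 0.0504, 1.14 and 2.46 at cXENp3, and at 3.55 and 0.824 in the XEN lines. Near 0 in ESCs and in Zfp281-present lines at cXENp3, it passed 1 FPKM in the KO libraries there, which alone brought it past the filter (log2 change 1.41, SE 0.24, adjusted p = 0.00177), and varied widely between XENB1 and XEN5.

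The other RGD receptors did not follow Itgb5. Itga8, the nephronectin receptor alpha subunit, was between 0.0682 and 2.09 FPKM in ESCs and reached 6.5 in 3WT and 8.54 in 3.34Null-Rescue at cXENp1 against 2.06 in 3.34Null and 0.722 in 2.6Null. That KO difference did not pass (log2 change -1.88, SE 0.45, adjusted p = 0.121), and Itga8 fell in Zfp281-present lines by cXENp3 (log2 change -2.44, SE 0.45, adjusted p = 0.00942). Itgb3, the vitronectin receptor subunit shared with platelets, ranged from 0.576 to 3.96 FPKM and was called in none of the 9 comparisons. Its highest value was in 3.34Null-Rescue at cXENp3.

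**Figure D3:**
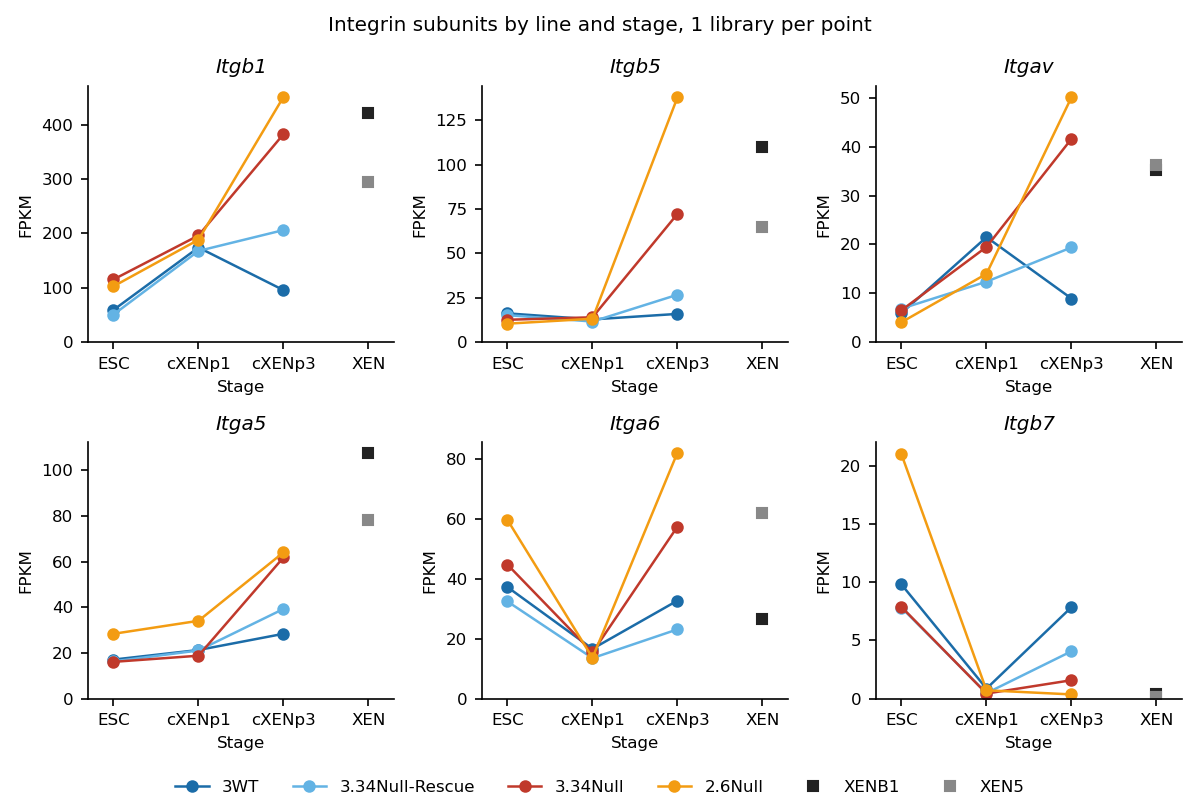
FPKM (vertical axes, from 0) of Itgb1, Itgb5, Itgav, Itga5, Itga6 and Itgb7 by stage, with 1 point per library, lines joining the stages of a cell line, and squares for XENB1 and XEN5. The red and orange KO lines part from the blue Zfp281-present lines at cXENp3, upward for Itgb5 (72.3 and 137.9 against 16 and 26.8) and downward for Itgb7 (1.58 and 0.358 against 7.86 and 4.07).

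Of the 4 collagen-receptor alpha subunits, Itga1, Itga2 and Itga10 stayed at 1.38 FPKM or less. Itga11, a collagen receptor of mesenchymal cells, was at 0.00972, 0.0445, 0.0153 and 0 FPKM in ESCs, at 0.297, 0.522, 0.447 and 0.197 at cXENp1, at 0.177, 4.66, 1.48 and 2.21 at cXENp3, and at 3.88 and 3.22 in the XEN lines. It was near 0 in ESCs and above 3 FPKM in both XEN lines (log2 change 2.16, SE 0.20, adjusted p = 0.000182), which alone brought it past the filter for that comparison. The highest value was in 3.34Null-Rescue at cXENp3, the library in which the summed level of 10 feeder fibroblast markers was also highest, 1267.8 FPKM against 34 in 3WT, 277.5 to 357.6 in the KO lines and 555.8 to 643.0 in the XEN lines. Itga1 and Itgb3 peaked in that library too. In ESCs the fibroblast marker sum was 1.65 to 2.21 FPKM in KO lines and 15.1 to 16.8 in Zfp281-present lines. Whether fibroblast RNA contributed to the Itga11, Itga1 and Itgb3 values, or to the integrins higher in XEN lines than in ESCs, was not tested.

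The leukocyte-type subunits moved otherwise. Itgb7, the lymphocyte beta subunit that pairs with Itga4 or Itgae, was at 9.81, 7.82, 7.88 and 21 FPKM in ESCs, at 0.858, 0.466, 0.431 and 0.714 at cXENp1, at 7.86, 4.07, 1.58 and 0.358 at cXENp3, and at 0.356 and 0.178 in the XEN lines. It fell at cXENp1 in every line (log2 change -2.86, SE 0.51, adjusted p = 0.00437) and returned in 3WT and 3.34Null-Rescue (log2 change 2.02, SE 0.46, adjusted p = 0.0224), so that KO lines were lower at cXENp3 (log2 change -1.84, SE 0.46, adjusted p = 0.0112), a call lost without 3WT. XEN lines were lower than ESCs (log2 change -3.21, SE 0.41, adjusted p = 0.000711), where Itgb7 was tested only through the ESC libraries. The alpha partners of Itgb7 were listed at far lower levels: in ESCs Itga4 was at 0.183 FPKM or less and Itgae at 0.53 to 0.637. Itgae was lower at cXENp1 in all 4 lines (0.159 to 0.32), and at cXENp3 it was at 0.595 and 0.375 in Zfp281-present lines and at 0.201 and 0.122 in KO lines. It never reached 1 FPKM and was not tested in the main fits, and with no filter on low levels it was called lower both at cXENp1 and in KO lines at cXENp3.

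Itga9, which with Itgb1 binds tenascin and osteopontin, was at 1.24, 1.15, 0.958 and 5.38 FPKM in ESCs, at 2.58, 1.76, 2.34 and 1.8 at cXENp1, at 4.87, 4.77, 1.1 and 0.763 at cXENp3, and at 0.74 and 0.438 in the XEN lines. At cXENp3 both KO libraries lay below both Zfp281-present ones (log2 change -1.60, SE 0.45, adjusted p = 0.0173), whereas in ESCs the highest value was that of 2.6Null. Itgam, the alpha subunit of the complement receptor Mac-1, was at 0.426, 0.276, 0 and 0 FPKM in ESCs, at 0.119, 0.178, 0.0212 and 0.023 at cXENp1, at 1.1, 1.25, 0.258 and 0.155 at cXENp3, and at 1.83 and 1.23 in the XEN lines. KO libraries were lower at cXENp3 (log2 change -0.85, SE 0.19, adjusted p = 0.00614) and XEN lines were higher than ESCs (log2 change 1.11, SE 0.25, adjusted p = 0.00901) and than KO cXENp3 (KO cXENp3 minus XEN, log2 change -1.06, SE 0.19, adjusted p = 0.0137). All these levels were below 2 FPKM. Itgam entered the KO comparison only through its Zfp281-present cXENp3 libraries, and that of XEN lines with ESCs only through the XEN lines.

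Itgb2, the beta partner of Itgam and Itgal, was at 0.0693, 0.0791, 0.0153 and 0 FPKM in ESCs, at 0.331, 0.249, 0.112 and 0.174 at cXENp1, at 0.0556, 0.066, 0.466 and 0.756 at cXENp3, and at 4.93 and 2.3 in the XEN lines. It exceeded 1 FPKM in the XEN lines alone, above ESCs (log2 change 2.09, SE 0.27, adjusted p = 0.000793) and above KO cXENp3 (KO cXENp3 minus XEN, log2 change -1.46, SE 0.26, adjusted p = 0.0122), the last a call lost in all 4 fits without a line in which it could be tested (adjusted p = 0.0592 to 0.0838). It was tested only because it is high in the XEN lines. The summed level of 8 leukocyte markers was also highest in the XEN lines, 330.6 and 835.6 FPKM against 73.6 to 74 in KO cXENp3 and 10.5 to 26.2 in ESCs, and most of it was Lyz2 (801.9 in XENB1 and 310.9 in XEN5). Of the defining markers, Ptprc was at 1.43 and 0.701 FPKM there, Emr1 at 4.12 and 1.87, Csf1r at 7.35 and 6.07, and Cd3e was under 0.1. Their part in the Itgb2 and Itgam levels was not tested. Itgal ranged from 0.224 to 1.37 FPKM and was called in none of the 9 comparisons.

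Turning to the claudins, the sum over the classical claudins was 116.9 to 271.3 FPKM in ESCs, 130.8 to 479.0 at cXENp1, 30 to 98.2 at cXENp3 and 166.7 to 194.6 in the XEN lines. At cXENp1 the order was 3WT at 130.8, 3.34Null-Rescue at 264.4, 3.34Null at 379.6 and 2.6Null at 479.0. What filled the sum changed with the stage. Cldn4 was the leading claudin in all 4 ESC libraries with 53.3% to 58.7%, Cldn6 or Cldn4 led at cXENp1, and Cldn6 made up 74.1% in XENB1 and 87% in XEN5. In 3.34Null-Rescue at cXENp3, where the sum was only 30, Cldn12 led with 37.4%.

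**Figure D4:**
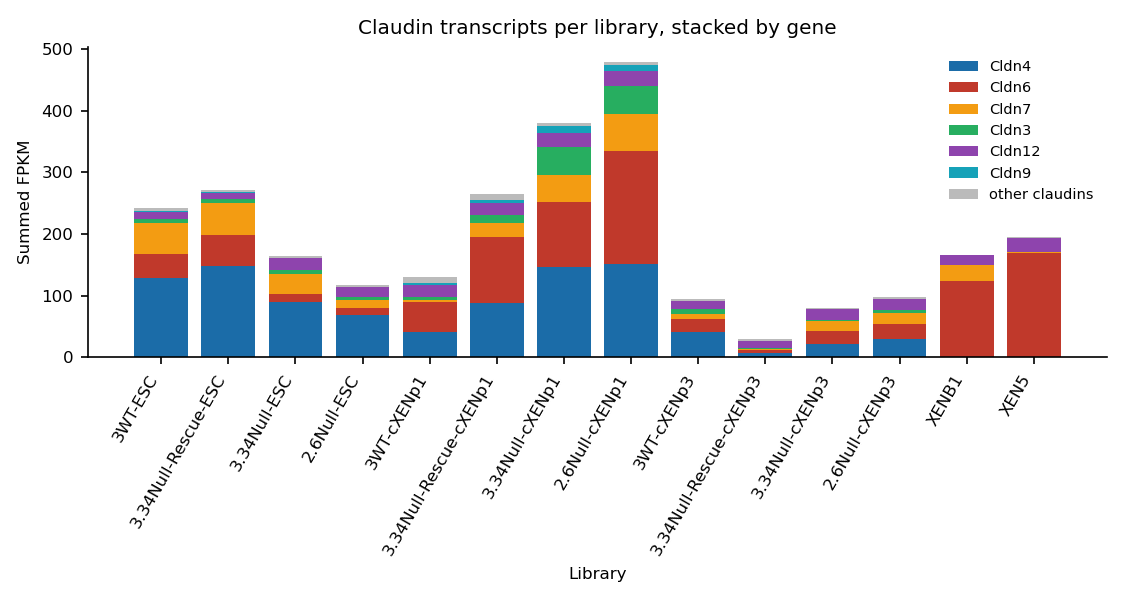
Summed FPKM of the classical claudins in each library (bars, vertical axis from 0), stacked by gene. Cldn4 (dark blue, base of each bar) is the largest segment in ESC libraries, the bars are tallest in the KO libraries at cXENp1 (379.6 and 479.0), and Cldn6 (red) fills most of both XEN bars.

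Cldn4 and Cldn3, a pair of closely related epithelial claudins known as receptors for a Clostridium enterotoxin, read lower in XEN lines than in ESCs. Cldn4 was at 128.8, 148.4, 89.2 and 68.6 FPKM in ESCs, at 40.7, 87.7, 147.0 and 151.1 at cXENp1, at 42.1, 7.28, 21.4 and 29.5 at cXENp3, and at 0.963 and 0.04 in the XEN lines. Both XEN libraries were under 1 FPKM (log2 change -6.20, SE 0.38, adjusted p = 2.67e-05). Cldn4 entered that comparison only through the ESC libraries, where it is high. KO cXENp3 libraries were between ESCs and XEN lines and differed from the latter (log2 change 4.20, SE 0.62, adjusted p = 0.00529). Within KO lines Cldn4 fell from cXENp1 (log2 change -2.52, SE 0.62, adjusted p = 0.0184). At cXENp1 both KO libraries were above both Zfp281-present ones without passing the test (log2 change 1.30, SE 0.62, adjusted p = 0.485).

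Cldn3 was at 7.53, 6.71, 6.13 and 4.62 FPKM in ESCs, at 4.17, 13.2, 44 and 45.7 at cXENp1, at 7.48, 1.37, 2.18 and 4.91 at cXENp3, and at 0 and 0 in the XEN lines. It is listed at 0 in both XEN lines, so the lower level there (limma adjusted p = 0.000163) has no fold. That comparison, too, tested it only through the ESC libraries. The KO libraries at cXENp1 stood at over 40 FPKM and the Zfp281-present ones at 13.2 or less, a difference that did not pass (log2 change 2.42, SE 0.60, adjusted p = 0.132), and KO lines fell by cXENp3 (log2 change -3.40, SE 0.60, adjusted p = 0.00379). Cldn7, a claudin of basal and lateral epithelial membranes, was at 50.2, 52, 33.9 and 13.3 FPKM in ESCs, at 3.71, 23.4, 44.3 and 59.4 at cXENp1, at 9.37, 1.77, 15.4 and 17.7 at cXENp3, and at 25.3 and 1.43 in the XEN lines. It was called in none of the 9 comparisons. KO libraries were above Zfp281-present ones at cXENp1 (log2 change 2.29, SE 0.76, adjusted p = 0.284) and at cXENp3 (log2 change 1.71, SE 0.76, adjusted p = 0.0982), the second of which passed without 3WT (2.66, adjusted p = 0.0334), and the comparison of XEN lines with ESCs did not pass (log2 change -2.09, SE 0.91, adjusted p = 0.0983). That last value ran from -3.81 without XENB1 to -0.37 without XEN5, and it passed without XENB1 and without 2.6Null (adjusted p = 0.0131 and 0.0458).

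Cldn6, a claudin of embryonic epithelia, was at 38.2, 49.3, 13 and 11.7 FPKM in ESCs, at 48.8, 107.4, 105.1 and 184.2 at cXENp1, at 19.6, 5.26, 22.2 and 24.8 at cXENp3, and at 123.5 and 169.4 in the XEN lines. It was higher at cXENp1 than in ESCs (log2 change 2.06, SE 0.64, adjusted p = 0.0388), with overlap between the stages because 3.34Null-Rescue ESCs exceeded 3WT at cXENp1. It then fell in Zfp281-present lines (log2 change -2.70, SE 0.52, adjusted p = 0.0115) and in KO lines (log2 change -2.52, SE 0.52, adjusted p = 0.00885). XEN lines stood above ESCs (log2 change 2.58, SE 0.58, adjusted p = 0.0092) and KO cXENp3 below XEN lines (log2 change -2.57, SE 0.51, adjusted p = 0.0191), so in Cldn6 the KO lines did not reach the level of the XEN lines at passage 3. In ESCs KO libraries were lower (log2 change -1.74, SE 0.52, adjusted p = 0.105) and at cXENp3 higher (log2 change 1.11, SE 0.52, adjusted p = 0.114) than Zfp281-present ones, neither past the threshold, while the change from the first difference to the second passed. With a line left out the difference at cXENp3 ran from 0.25 to 1.97, called without 3WT (adjusted p = 0.032), and the change between the differences ran from 1.81 to 3.88, called in 0 of 4 fits.

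Its neighbour Cldn9 was at 1.07, 1.29, 0.475 and 0.429 FPKM in ESCs, at 3.31, 4.83, 11.3 and 10.5 at cXENp1, at 0.902, 0.0749, 0.414 and 0.281 at cXENp3, and at 0.0401 and 0 in the XEN lines. The course had the same shape at a lower level: up at cXENp1 (log2 change 2.12, SE 0.38, adjusted p = 0.00469), down by cXENp3 in KO (log2 change -3.14, SE 0.29, adjusted p = 0.000137) and in Zfp281-present lines (log2 change -1.81, SE 0.29, adjusted p = 0.00482), but low in the XEN lines (log2 change -0.80, SE 0.27, adjusted p = 0.0427), where Cldn6 was high. The Cldn9 value at cXENp1 was higher in both KO lines without passing (log2 change 1.24, SE 0.29, adjusted p = 0.11). Cldn9 was above 1 FPKM in every cXENp1 library and, outside that stage, in the ESC libraries of 3WT and 3.34Null-Rescue. Only through those ESC libraries was it tested in XEN lines against ESCs.

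**Figure D5:**
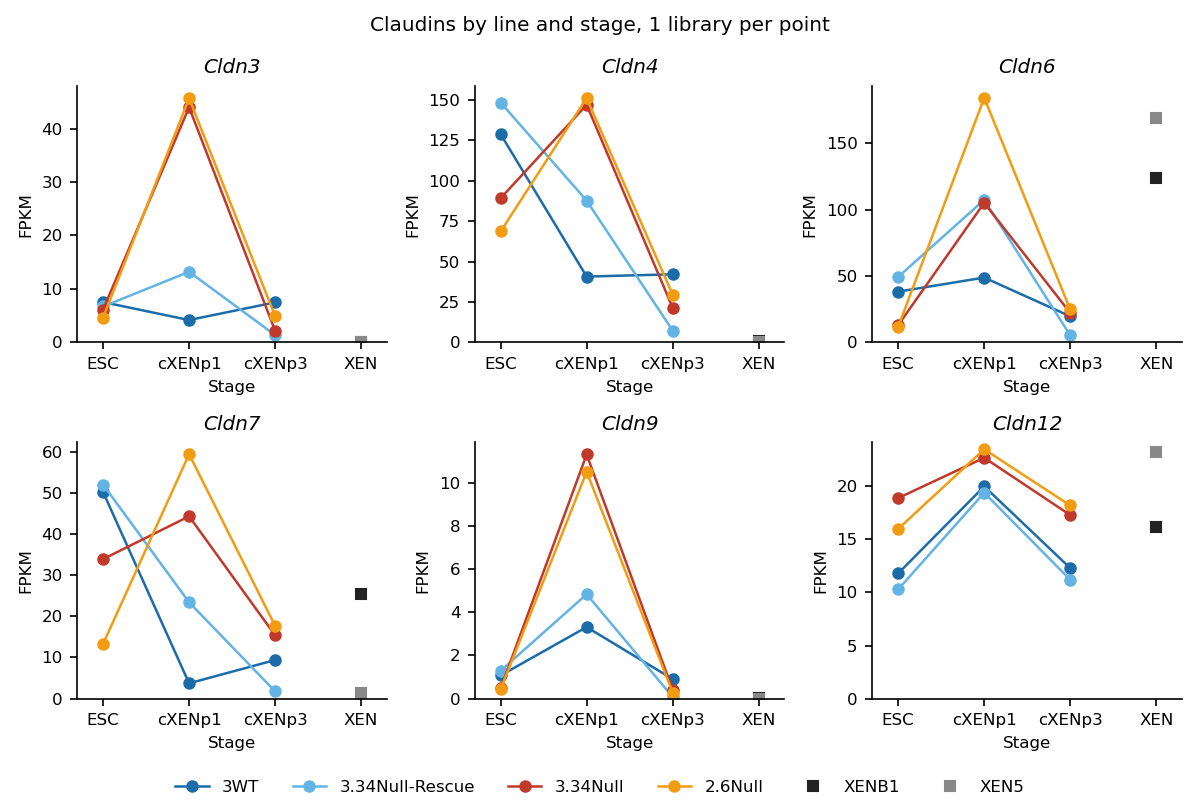
FPKM (vertical axes, from 0) of Cldn3, Cldn4, Cldn6, Cldn7, Cldn9 and Cldn12 by stage, with 1 point per library, lines joining the stages of a cell line, and squares for XENB1 and XEN5. Cldn3 and Cldn9 peak at cXENp1 in the red and orange KO lines (44 and 45.7 FPKM for Cldn3), while Cldn12 stays between 10.3 and 23.5 FPKM throughout.

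Cldn12, a claudin that lacks the usual scaffold-binding tail, was at 11.8, 10.3, 18.9 and 16 FPKM in ESCs, at 20, 19.4, 22.7 and 23.5 at cXENp1, at 12.3, 11.2, 17.3 and 18.2 at cXENp3, and at 16.2 and 23.2 in the XEN lines. It varied least of the 7 claudins that reached 10 FPKM. The steps were small: up at cXENp1 (log2 change 0.59, SE 0.17, adjusted p = 0.0288), down in Zfp281-present lines by cXENp3 (log2 change -0.70, SE 0.18, adjusted p = 0.0366), and higher in KO lines there (log2 change 0.56, SE 0.18, adjusted p = 0.0322), a call lost with quantile normalization. The rise at cXENp1 was called in 0 of the 4 fits without a line, and the KO difference ran from 0.50 to 0.62 with a line left out. The row named Cldn25 (Cldnd1) was at 22.7, 19.6, 30 and 25.2 FPKM in ESCs, at 35, 28.8, 37.6 and 41.4 at cXENp1, at 19.9, 21.8, 39.4 and 39.8 at cXENp3, and at 48.2 and 30.7 in the XEN lines. Both KO libraries exceeded both Zfp281-present ones at cXENp3 (log2 change 0.90, SE 0.19, adjusted p = 0.00452).

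Cldn5, the claudin of the blood vessel barrier, was at 1.63, 1.82, 1.3 and 0.632 FPKM in ESCs, at 0.266, 0.41, 0.54 and 0.487 at cXENp1, at 1.91, 1.05, 0.591 and 0.263 at cXENp3, and at 0 and 0 in the XEN lines. KO libraries were lower at cXENp3 (log2 change -0.78, SE 0.26, adjusted p = 0.0357), a difference that ran from -1.04 to -0.53 with a line left out. The gene is listed at 0 in the XEN lines (limma adjusted p = 0.00982 against ESCs, no fold) and was tested there only through the ESC libraries. The low claudins Cldn1, Cldn11 and Cldn23 appeared at cXENp1. Cldn11, known from myelin and Sertoli cells, was at 0.064, 0.0346, 0.939 and 0 FPKM in ESCs, at 4.9, 4.07, 0.784 and 0.505 at cXENp1, at 0, 0.213, 0 and 0.0359 at cXENp3, and at 0.0316 and 0 in the XEN lines. It was higher in 3WT and 3.34Null-Rescue at cXENp1 than in the KO lines (log2 change -1.74, SE 0.30, adjusted p = 0.0413), a call that held without 3.34Null and was lost without 2.6Null (adjusted p = 0.118), while without 3WT or 3.34Null-Rescue the gene did not pass the filter. It fell in the Zfp281-present lines by cXENp3 (log2 change -2.31, SE 0.30, adjusted p = 0.00179).

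Cldn23 ran the other way among lines: it was at 0.0725, 0, 0 and 0 FPKM in ESCs, at 0.546, 0.83, 1.47 and 2.4 at cXENp1, at 0, 0.164, 0.292 and 1.14 at cXENp3, and at 0 and 0.0367 in the XEN lines. Its rise at cXENp1 passed over the 4 lines (log2 change 1.12, SE 0.24, adjusted p = 0.0093) and its KO difference was not called at any stage. Cldn1, the claudin of the skin barrier, was at 0, 0, 0.0206 and 0 FPKM in ESCs, at 2.2, 1.38, 1.15 and 0.17 at cXENp1, at 0, 1.11, 0.255 and 0.39 at cXENp3, and at 0.204 and 0 in the XEN lines. It was above 1 FPKM in 3 of the 4 cXENp1 libraries (log2 change 1.06, SE 0.31, adjusted p = 0.0298) and in 3.34Null-Rescue at cXENp3.

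Between passages 1 and 3 the called integrins rose and the called claudins fell in the KO lines, while the integrin calls were mixed in Zfp281-present lines. The KO lines come first. There 6 integrins rose (Itgb1, Itgb5, Itgb6, Itga5, Itga6 and Itgav), 0 integrins fell, 4 claudins fell (Cldn3, Cldn4, Cldn6 and Cldn9) and 0 claudins rose, which is 10 of 27 members against 21.3% of all genes, with Itgb6 tested only through the KO cXENp3 libraries. The median log2 change was 0.84 over 16 integrins and -0.80 over 11 claudins, beside -0.01 over all genes. Over the same step the medians in Zfp281-present lines were 0.61 and -0.93, beside 0.01 over all genes. Among the libraries of this fit Itga7, Itga11, Itgam and Itgb6 reached 1 FPKM at cXENp3 alone, and Cldn11 at cXENp1 alone. These medians therefore support no statement about the families. In Zfp281-present lines 8 of 27 were called, against 10.9% of all genes: 2 integrins rose (Itgam and Itgb7), 2 fell (Itga3 and Itga8), and 4 claudins fell (Cldn6, Cldn9, Cldn11 and Cldn12). Itgam and Cldn11 were tested only through the Zfp281-present libraries in which they are high. Cldn6 and Cldn9 thus fell in both. Fewer of the 8 calls in Zfp281-present lines held without 3.34Null-Rescue or without 3WT, and fewer of all genes were called. In the KO lines the same was seen without 2.6Null or without 3.34Null.

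KO lines at cXENp3 were then set against the XEN lines. Of 28 members 5 were called, where 4.12% of all genes were called: Cldn4 was higher in KO cXENp3, and Cldn6, Itga7, Itgam and Itgb2 were lower. The matrix receptors Itgb1, Itgb5, Itgav, Itga3, Itga5 and Itga6 were not called, which does not show that their levels were equal. Fewer members were called with any 1 line left out, and so were fewer of all genes, except without 3.34Null, where more genes were called. Cldn3 was also called without 3WT and without 3.34Null-Rescue.

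A direct test asked whether the KO difference at cXENp3 differed from that in ESCs. It passed for 6 of 27 members, where 22.6% of all genes were called. The KO difference moved upward for Itgb5 (log2 change 2.63, SE 0.44, adjusted p = 0.00593), Itgb6 (log2 change 1.40, SE 0.34, adjusted p = 0.0192), Itgav (log2 change 1.97, SE 0.53, adjusted p = 0.0287) and Cldn6 (log2 change 2.85, SE 0.74, adjusted p = 0.0251), and downward for Itga9 (log2 change -2.29, SE 0.63, adjusted p = 0.0304) and Itgb7 (log2 change -2.36, SE 0.66, adjusted p = 0.0313). These calls were lost without 3WT and without 3.34Null-Rescue, and without 2.6Null only that of Itgb5 remained. Fewer of all genes were called in each of these fits as well. Without 2.6Null the value was -1.31 for Itga9 and -1.24 for Itgb7, neither called, and Itgb6 was tested only through the KO cXENp3 libraries. With quantile normalization 3 members were higher and 3 lower, Itgav giving way to Itgal.

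The proteins around the receptors were taken from 3 lists. Of 25 integrin ligands tested at cXENp3, 8 were higher in KO lines and 4 lower, with a median log2 difference of 0.82 beside 0.01 over all genes: 48% of the list was called, 3 of the 12 calls being the listed zeros given below, against 41.9% of all genes. Lamb1, a laminin beta chain, was at 27.6 and 48.4 FPKM in Zfp281-present lines and at 2933.3 and 1986.8 in KO lines (log2 change 6.01, SE 0.66, adjusted p = 0.000258). The matricellular proteins Ctgf (log2 change 5.16, SE 0.74, adjusted p = 0.000837) and Cyr61 (log2 change 3.90, SE 0.85, adjusted p = 0.00594) were higher too. Of the 4 lower ones, Icam1, the ligand of Itgal and Itgam with Itgb2, was at 55.8 and 31.6 against 5.52 and 4.95 FPKM (log2 change -2.79, SE 0.31, adjusted p = 0.000286). The other 3, Lamc1, Col4a1 and Col4a2, as well as Lama1, which was not called, are listed at exactly 0 in both KO cXENp3 libraries and both XEN lines, beside 58.7 to 317.0 FPKM of Lamc1 in the remaining 10. They are reported as listed, and no fold or direction is drawn from them.

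Of 26 adaptors and tetraspanins that couple integrins to actin or the membrane, 14 were higher in KO lines at cXENp3 and 0 lower, with a median of 0.67 (53.8% called, against 41.9% of all genes). The tetraspanin partners of laminin-binding integrins Cd9 (log2 change 2.77, SE 0.44, adjusted p = 0.00136) and Cd151 (log2 change 2.33, SE 0.28, adjusted p = 0.000344) and the actin linker Parvb (log2 change 2.46, SE 0.51, adjusted p = 0.00455) changed most. Cd9 was at 221 and 161.8 FPKM in Zfp281-present lines and at 1466.7 and 1151.4 in KO lines. Fewer adaptors were called without 3WT, without 2.6Null and without 3.34Null-Rescue, and so were fewer of all genes. In XEN lines against ESCs 10 of 26 were higher and 0 lower (38.5%, against 41.9% of all genes). At cXENp1 against ESCs 9 were higher and 3 lower (46.2%, against 28.5%). With the prefix term 2 adaptors were called in all, where 280 of all 13191 genes were higher and 159 lower.

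Of 27 tight junction partners, 6 were higher in KO lines at cXENp3 and 2 lower, with a median of 0.28; 29.6% were called, below the 41.9% of all genes. The adhesion protein Cxadr (log2 change 3.28, SE 0.24, adjusted p = 3.79e-05), the angiomotin Amotl2 (log2 change 2.77, SE 0.46, adjusted p = 0.00155) and the scaffold Inadl (log2 change 1.84, SE 0.25, adjusted p = 0.000622) had the largest differences. Cdh1, which encodes E-cadherin, was lower (log2 change -1.20, SE 0.33, adjusted p = 0.0172): it was at 121.8 and 73.2 FPKM in Zfp281-present lines, 39.9 and 41.3 in KO lines, and 4.28 and 0.61 in XENB1 and XEN5. The polarity kinase Prkci was the other lower one (log2 change -0.78, SE 0.24, adjusted p = 0.0262). At cXENp1 against ESCs 12 partners were higher and 2 lower, with the occludin gene Ocln and Tjp1 among the higher ones (51.9% called, against 28.5% of all genes). With the prefix term 5 partners were called in all, where 280 of all 13191 genes were higher and 159 lower. In XEN lines against ESCs 8 were higher and 6 lower (51.9%, against 41.9%). Ligands stood at 9 higher and 4 lower at cXENp1 (52%, against 28.5%), or 1 called in all with the prefix term, and at 12 higher and 5 lower in XEN lines (70.8%, against 41.9%), where Lamc1, Lama1, Col4a1 and Col4a2 again count among the lower ones by their listed zeros.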

How the data were processed

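PolyA RNA of 14 mouse libraries was sequenced with paired reads of 150 bases. The authors deposited 1 table of 23174 rows, taken as FPKM: the values are not whole and never negative. Per the submitters' processing notes, STAR 2.5.3, Cufflinks 2.1.1 and build mm9 were used; their roles, the annotation and the unit are not given in the sources used here. No counts were given, so the depth is unknown.

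The members and lists were chosen with earlier results of these data known. Genes reaching 1 FPKM in at least 2 of the fitted libraries were kept. log2(FPKM + 1) was fitted with limma 3.58.1 (eBayes with trend, R 4.3.3), with Benjamini-Hochberg adjustment over all genes kept and a threshold of 0.05. The comparison of cXENp1 with ESC used 12 libraries with line as a block, which comes from the labels (correlations of same-line deviations 0.03 to 0.40). KO against Zfp281-present, the change from cXENp1 to cXENp3 and the stage interaction used 6 groups of those 12 libraries, XEN against ESC 6 libraries, and KO cXENp3 against XEN all 14. Members named with every value were called at cXENp3, in XEN lines or at cXENp1 and ranged over at least 1 on the log2 scale, at most 10 per comparison and family; Cldn7, Itga8, Itgb3 and Itgal were added after their values were seen. List genes named were the 3 largest per direction at cXENp3. Python 3.11.15 with pandas 2.3.3 made the summaries. The fits were tested on simulated data, and no 2 libraries held identical values. Promoter windows came from RefSeq (GRCm38.p6), gene coordinates from the table (mm9, counted from 1). Alternatives covered the pseudocount (0.1), the filter (genes with a level over 0 anywhere, or averaging 5 FPKM or more), quantile normalization, eBayes without trend, the block, the description prefix and leaving out each line.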

Additional observations from a re-analysis of the deposited data

Results flagged for a closer look

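The interaction term of the limma fit over 12 libraries was called for 22.2% of the members, near the 22.6% of all genes. For these 6 of 27 members the KO difference at cXENp3 differed from the KO difference in ESCs. On the log2(FPKM + 1) scale this change was 2.63 for Itgb5, 1.40 for Itgb6, 1.97 for Itgav and 2.85 for Cldn6, and it was -2.29 for Itga9 and -2.36 for Itgb7. Itgb5 went from 10.5 to 12.7 FPKM in KO ESCs, under the 15.3 to 16.3 of Zfp281-present ESCs, to 72.3 to 137.9 at cXENp3, over 16 to 26.8. Cldn6 went from 11.7 to 13 FPKM in KO ESCs, under 38.2 to 49.3, to 22.2 to 24.8 at cXENp3, over 5.26 to 19.6. Itga9 and Itgb7 had their highest ESC values in 2.6Null (5.38 and 21 FPKM), the line whose XEN markers were already raised in ESCs. Without 2.6Null the change was -1.31 for Itga9 (adjusted p = 0.0661) and -1.24 for Itgb7 (adjusted p = 0.164), and without 3.34Null it was -3.26 and -3.48. Itgb6 was tested only through the KO cXENp3 libraries, in which it is high. All 6 kept their sign in each fit that could be made without a line. Fewer members were called without 3WT, without 3.34Null-Rescue and without 2.6Null, and so were fewer of all genes. With the description prefix as a term, 3 of the 6 (Itgb5, Itgb6 and Itga9) were called. Of all 13191 genes 1399 were then higher and 1019 lower, instead of 1807 and 1168.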

How the results depend on the processing

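Of 503 recomputed member values under settings other than leaving out a line, 467 kept their side of the threshold and 36 were lost, and of 329 with a line left out, 216 kept it, 108 were lost and 5 were gained; no named value changed sign. With genes averaging 5 FPKM or more, a smaller set, the tests left 9 members called for KO at cXENp3, 8 for XEN against ESC, 7 for cXENp1 against ESC, 4 for cXENp3 against cXENp1 in Zfp281-present lines, 2 for KO cXENp3 against XEN and 0 for KO at cXENp1. Of all 8943 genes then tested, 2144 were higher and 1931 lower for KO at cXENp3, and 1006 and 1363 for cXENp1 against ESC. The passage step in Zfp281-present lines had 455 and 383, and KO at cXENp1 had 13 and 0. XEN against ESC had 1833 and 1661 of 8798, and KO cXENp3 against XEN 158 and 78 of 8997. With every gene above 0 anywhere kept, 2 members were called for KO at cXENp1 and 1 for KO in ESCs. Of all 18962 genes 79 were then higher and 57 lower at cXENp1, and 115 and 118 in ESCs. A pseudocount of 0.1 left 0 members for KO at cXENp1, where 19 of all 13191 genes were higher and 0 lower. The description prefix as a term left 2 for cXENp1 against ESC, where 280 genes were higher and 159 lower. The cause was not tested. Counts with 1 line left out ran from 5 to 14 for KO at cXENp3, 0 to 2 at cXENp1, 0 to 3 in ESCs, 0 to 4 for the interaction, 4 to 9 for cXENp1 against ESC and for cXENp3 against cXENp1 in KO, 0 to 11 for the same in Zfp281-present lines, 7 to 16 for XEN against ESC and 0 to 3 for KO cXENp3 against XEN. Where this left 1 library in a group, that library is assumed to vary like the others. The number of all genes called moved with the line left out as well. Line as a random replicate block left 14 members for KO at cXENp3 and 7 for the interaction, and moved no other count; dropping the block for cXENp1 against ESC left 10. Quantile normalization moved the median of all genes by -0.12 for KO at cXENp3 and by -0.15 for the interaction, and split the cXENp1 calls 9 higher and 4 lower, instead of 9 and 2. The unknown depth limits the members under 1 FPKM most.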
